A study of Rattus norvegicus with 8 samples.

Results

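Interferon-stimulated genes are the transcripts that cells switch on when they sense interferon, the cytokine alarm of viral infection and of tissue inflammation. The genes described here are a list of 39 such genes, taken by name from a table of 37209 gene rows, and 38 of them had a row of that name. Xaf1 had none and is not analysed here. All 38 passed the filter on low counts. Their transcripts were counted in 4 vein grafts and 4 control jugular veins, all taken 1 week after surgery from Sprague Dawley rats, which are outbred. In the graft operation the left common carotid artery was divided and its ends were turned over short cuffs cut from a cannula, so that the grafted vein carried arterial blood. The control was the contralateral jugular vein of the operated rats. Age, sex and the animal behind each library are not stated in the labels. Nothing states how many animals each library holds, so p-values measure the spread between these libraries.

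Type I interferons (the alpha and beta forms) bind a receptor whose kinases phosphorylate STAT proteins, among them STAT2, which join IRF9 and bind a DNA element called the ISRE. Interferon-gamma, made mainly by T and NK cells, acts through STAT pairs that bind a different element, the GAS. Many target genes answer to either signal, but the antiviral effectors (IFIT, OAS, MX and IFITM proteins) are best known as type I targets, and the guanylate-binding and immunity-related GTPases as interferon-gamma targets. In a vessel wall these genes can be expressed by smooth muscle and endothelial cells as well as by leukocytes. A bulk sample cannot tell a change in the number of cells of a type from a change in RNA per cell.

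Total counts were 10533451 to 16061189 in the grafts and 5981520 to 14267490 in the controls. The labels' extraction text names prefrontal cortex as the source. Against that, 8 cortical neuron markers summed to 2.48 to 4.67 CPM (counts scaled to 1e6 per library, with TMM-scaled library sizes) in grafts and 1.39 to 4.27 CPM in controls, with Neurod6 at 0 in every library. The 7 smooth muscle markers summed to 1791 to 3429 CPM in grafts and 12810 to 21276 CPM in controls, and the 8 endothelial markers to 1462 to 1799 CPM in grafts and 3181 to 4817 CPM in controls. Of 11 macrophage markers tested, 9 rose in grafts, and all 11 T and NK cell markers tested rose. All 6 adipocyte markers fell. By the test described below, 21.0% of all genes tested rose and 21.3% fell.

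The DNA elements of the pathway were looked for in the members' promoters. RefSeq promoter windows (GRCr8, from 250 bases before to 50 bases after the start) were found for 28 of the 39 members. The windows of Ifit1, Ifit2, Isg15, Mx2, Oas2, Ifitm1, Adar, Ddx58, Dhx58, Zbp1 and Usp18 were not used here. The ISRE core was searched as GAAA, any 2 bases and GAAA, and the GAS core as TTC, any 3 bases and GAA, on either strand, so that the 2 cores can overlap. Of these 28 windows, 20 (71.4%) held an ISRE core, against 1312 of all 33469 windows (3.92%). A GAS core stood in 6 of the 28 (21.4%), against 8.87% of all windows. The windows of Mx1, Oasl, Cmpk2, Ifi35, Herc6, Trim25, Parp9 and Stat2 held neither. Such a match is a description of the sequence, not a bound site. The following stretches before the start belong to members that rose in grafts and hold an ISRE core, and are shown 5′ to 3′ on the gene's strand with the cores in capitals. The annotated span of Oasl2 reaches 152 bases before the start used, so its core lies within that span.

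Oasl2 (chr12:47383317-47383346, minus strand): aaagctttggTTTCAGTTTCcaggcttgag
Bst2 (chr16:18254968-18255117, minus strand): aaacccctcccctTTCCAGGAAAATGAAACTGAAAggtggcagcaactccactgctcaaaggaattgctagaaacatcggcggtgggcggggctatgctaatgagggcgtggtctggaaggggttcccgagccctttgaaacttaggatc
Gbp2 (chr2:234005577-234005726, plus strand): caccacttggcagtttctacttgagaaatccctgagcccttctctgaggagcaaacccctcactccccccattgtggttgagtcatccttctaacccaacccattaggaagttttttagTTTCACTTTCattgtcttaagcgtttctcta
Ifi27 (chr6:128355062-128355311, plus strand): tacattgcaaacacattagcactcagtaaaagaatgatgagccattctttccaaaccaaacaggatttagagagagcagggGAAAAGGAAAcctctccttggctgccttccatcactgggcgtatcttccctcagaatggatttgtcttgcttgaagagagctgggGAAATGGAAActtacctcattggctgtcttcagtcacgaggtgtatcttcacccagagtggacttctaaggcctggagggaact

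In Bst2 a GAS core runs into 2 overlapping ISRE cores, so that its capitals form a single run. In 3 other members a GAS core was followed, 2 bases on, by an ISRE core. They are the GTPases Igtp and Irgm and the ADP-ribosyltransferase Parp14, shown here with the 2 bases between the cores in lower case. The annotated span of Irgm reaches 142 bases before the start used, so its cores lie within that span.

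Igtp (chr10:42874933-42874953, plus strand): TTCCAGGAAccGAAACTGAAA
Irgm (chr10:33742603-33742623, minus strand): TTCAAGGAAtaGAAACTGAAA
Parp14 (chr11:78408047-78408067, plus strand): TTCCAGGAAatGAAAGTGAAA

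This joint arrangement, searched on either strand after the windows had been seen, stood in 7 of 33469 windows (0.0209%). The other 4 belong to Irgm2, Ifgga2l2, Stra8 and LOC134480693. Irgm2 is a GTPase of the same family as Irgm, and its transcript was at log2 fold change 0.31 ± 0.41 in grafts (SE; edgeR adjusted p = 0.574). None of the 3 members with the joint arrangement passed the test in grafts. Among members with a window and a count, an ISRE core stood in 4 of 7 that rose and in 15 of 20 that did not pass.

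A minority of these genes passed the test as higher in grafts. In edgeR's quasi-likelihood test, with Benjamini-Hochberg adjustment over all 15464 genes tested and a threshold of 0.05, 13 of 38 rose in grafts (34.2%), against 21.0% of all genes. None fell by edgeR, DESeq2 or limma voom, against 21.3% of all genes by edgeR, and 25 did not pass. An unadjusted p under 0.05 was reached by 16 members (42.1%), all with the higher mean in grafts, and by 50.7% of all genes, with 25.2% of all genes higher in grafts. The log2 fold change was positive for 33 of the 38, with a median of 0.55, against a median of 0.01 for all genes tested. The genes that rose were Oas2, Oasl, Oasl2, Bst2, Ifitm1, Adar, Ifi27, Ifi35, Dhx58, Zbp1, Usp18, Gbp2 and Stat2. Rises of 1 or more on the log2 scale were seen for 9 of them, which 13.1% of all genes tested did. All 4 grafts stood above all 4 controls for 7 members, and the groups overlapped for the other 31. Of all genes, 20.8% had every graft above every control. The number of members that rose depended on single libraries. It was 21 without control 2 (18.3% of all genes), 7 without control 3 (18.3%), 8 without control 4 (18.4%), 8 without graft 3 (18.5%) and 8 without graft 4 (18.5%). The split over all genes, 3250 that rose and 3288 that fell, was 4558 and 2164 with library totals in place of TMM factors, and 15 of 38 members then rose, against 29.5% of all genes.

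**Figure D1:**
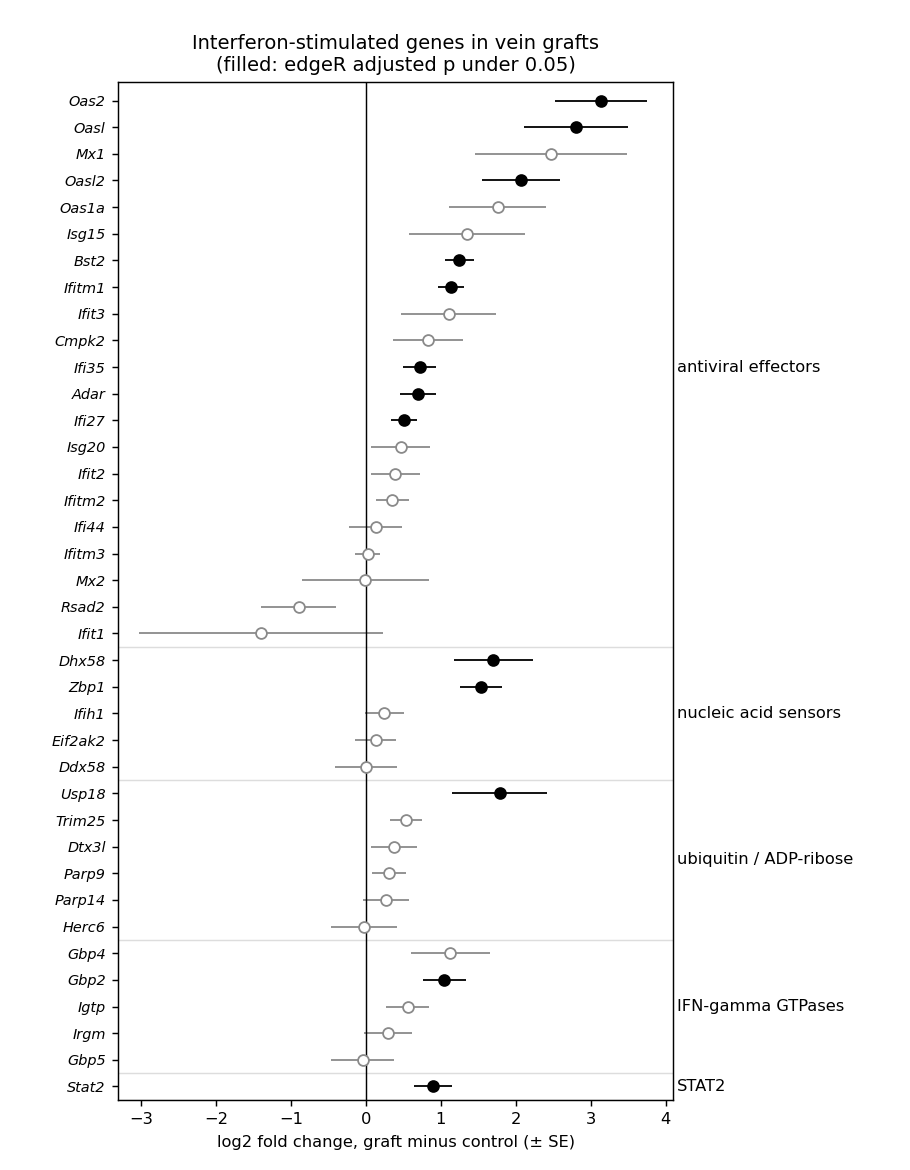
Log2 fold change (graft minus control, x axis) of the 38 members, grouped by role, with bars for the standard error. Filled points passed edgeR's test at an adjusted p under 0.05, and the 13 filled points all lie right of 0, from Ifi27 at 0.51 to Oas2 at 3.14.

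Among the members that passed, the largest rises were those of Oas2, Oasl and Oasl2, which belong to the 2′-5′-oligoadenylate synthetase family. These enzymes sense double-stranded RNA and make the messenger that turns on RNase L, except for the OAS-like proteins, which in part act without that messenger. Oas2 stood at 13.5, 30.6, 43.4 and 31.2 CPM in grafts 1 to 4, against 1.05, 6.57, 4.68 and 0.747 CPM in controls 1 to 4. The groups did not overlap, and graft 1 was the lowest graft. On the log2 scale Oas2 rose by 3.14 ± 0.61 (SE; edgeR adjusted p = 0.00294). Oasl stood at 8.31, 14.3, 36.2 and 21.5 CPM in grafts 1 to 4, against 1.42, 7.47, 1.76 and 0.56 CPM in controls 1 to 4. Control 2 came within 1 CPM of graft 1, while the other controls were far lower. Oasl rose by 2.80 ± 0.69 (edgeR adjusted p = 0.00994). Oasl2 stood at 35.5, 60.3, 98.8 and 56.0 CPM in grafts 1 to 4, against 9.06, 34.5, 8.28 and 7.65 CPM in controls 1 to 4. Again control 2 lay just under graft 1. The rise of Oasl2 was 2.07 ± 0.52 (edgeR adjusted p = 0.0107). Neither Oasl nor Oasl2 passed with controls 3 and 4 left out (edgeR adjusted p = 0.0676 and 0.0811). Oas1a, a synthetase of the same family, averaged 19.4 ± 8.07 CPM in grafts and 5.67 ± 6.37 CPM in controls (SD, n = 4 each) and just missed the threshold (edgeR adjusted p = 0.0523). It passed by DESeq2 (adjusted p = 0.0109) and limma voom (0.0212), and by edgeR with library totals (0.031), with upper-quartile factors (0.0469), with no low-count filter (0.0435), without control 2 (0.0017) and without graft 1 (0.0436). Oas1a has near-identical neighbours, so its reads may be split between copies. Of relatives that are not members, Oas3 rose, with a log2 fold change of 3.86. Oas1b, at 1.01, and Oas1k, at -0.09, did not pass.

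Of 4 members whose proteins block viruses at membranes, Bst2 and Ifitm1 rose, against 21.0% of all genes. Bst2, or tetherin, which holds budding virus particles at the cell surface, averaged 69.9 ± 11.8 CPM in grafts and 29.4 ± 7.36 CPM in controls (SD, n = 4 each) and rose by 1.25 ± 0.19 (SE; edgeR adjusted p = 0.000856). Ifitm1, which blocks virus entry at the cell membrane, averaged 58.4 ± 13.1 CPM in grafts and 26.6 ± 2.55 CPM in controls and rose by 1.13 ± 0.17 (edgeR adjusted p = 0.000701). For each of these genes the groups did not overlap, and the controls lay close together. The Ifitm1 relatives Ifitm2 and Ifitm3, which act in endosomes, did not pass. Ifitm2 averaged 91.7 ± 3.44 CPM in grafts and 71.5 ± 25.2 CPM in controls, and Ifitm3 averaged 125 ± 6.05 CPM in grafts and 122 ± 28.2 CPM in controls. Ifitm2 passed without control 1 (edgeR adjusted p = 0.0277). The difference of the Ifitm1 change from those of its relatives was not tested, and their similar sequences leave the split of reads uncertain. Ifi27 rose by 0.51 ± 0.18 (edgeR adjusted p = 0.04), Ifi35 by 0.72 ± 0.22 (edgeR adjusted p = 0.0247) and Adar, which edits double-stranded RNA, by 0.69 ± 0.24 (edgeR adjusted p = 0.0427). These 3 calls lay near the threshold, and each was lost in several of the fits that left out a single library. Adar kept its call only without control 2 or graft 1 (edgeR adjusted p from 0.0574 to 0.105 without any other library). Ifi27 kept it only without control 1 or graft 1 (0.0688 to 0.105 otherwise), and Ifi35 lost it without control 3, control 4, graft 3 or graft 4 (0.0528 to 0.0686).

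Mx1, Isg15, Mx2, Rsad2 and Cmpk2, set together here after their values were seen, did not pass in edgeR's unpaired test with all libraries. Mx1, a dynamin-like GTPase that blocks influenza virus in rodents, stood at 58.4, 204, 314 and 236 CPM in grafts 1 to 4, against 5.84, 122, 15.1 and 3.17 CPM in controls 1 to 4. Control 2 thus stood above graft 1 and far above the other controls. Its log2 fold change was 2.46 ± 1.01 (SE; edgeR adjusted p = 0.0757), and it was 4.62 ± 0.71 without control 2 (edgeR adjusted p = 0.00174). By limma voom with all libraries it passed as well (adjusted p = 0.0124). It also passed by edgeR with the title number as a replicate block (adjusted p = 0.017). Isg15, a ubiquitin-like protein that is attached to other proteins, stood at 4.79, 19.2, 17.0 and 17.5 CPM in grafts 1 to 4, against 0.899, 16.2, 3.76 and 1.87 CPM in controls 1 to 4. Its log2 fold change of 1.34 ± 0.77 (edgeR adjusted p = 0.189) was 2.74 ± 0.61 without control 2 (0.0095). With the title number as a replicate block it was 1.90 (edgeR adjusted p = 0.0216). Mx2 averaged 124 ± 58.9 CPM in grafts and 125 ± 168 CPM in controls, of which control 2 alone held 373 CPM. Reads of Mx1 and Mx2, which are similar in sequence, may be split between them. Rsad2, or viperin, which makes a chain-ending nucleotide, had a lower mean in grafts. It stood at 15.3, 17.5, 63.5 and 41.9 CPM in grafts 1 to 4, against 104, 69.8, 53.4 and 28.4 CPM in controls 1 to 4, and its highest control was control 1. The groups overlapped, with a log2 fold change of -0.89 ± 0.50 (edgeR adjusted p = 0.176). Cmpk2, a mitochondrial nucleotide kinase, is the neighbour of Rsad2 in the genome, and had a log2 fold change of 0.83 ± 0.47 (edgeR adjusted p = 0.177), or 1.49 ± 0.35 without control 2 (0.0123).

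The Ifit genes encode proteins that bind viral RNA. Ifit1 was the most uneven member. It had 2, 34, 15 and 811 counts in grafts 1 to 4, against 1, 1247, 195 and 38 counts in controls 1 to 4. Graft 1 and control 1 were near 0, and graft 4 and control 2 were the highest of their groups. The spread spanned 429-fold within the grafts and 1658-fold within the controls, so the fitted log2 value, -1.40 ± 1.62 (SE; edgeR adjusted p = 0.518), has no clear direction. It ran from -4.87 without graft 4 to 0.86 without control 2. Ifit3 was less uneven, spanning 4.90-fold within the grafts and 6.19-fold within the controls. Graft 1 and control 1 were again the lowest of their groups and control 2 the highest control, but graft 4 was not the highest graft. Ifit3 stood at 17.5, 40.3, 85.9 and 62.5 CPM in grafts 1 to 4, against 8.99, 55.7, 21.2 and 9.15 CPM in controls 1 to 4. Graft 3, with 15 counts of Ifit1, held the highest Ifit3 level of all libraries. Ifit3 had a log2 fold change of 1.11 ± 0.63 (edgeR adjusted p = 0.185), or 1.96 ± 0.55 without control 2 (0.0236). Ifit2 had 0.39 ± 0.33 (edgeR adjusted p = 0.36), or 0.79 ± 0.26 without control 2 (0.0411). The last effectors, Isg20, a nuclease, at 0.47 ± 0.40, and Ifi44, at 0.13 ± 0.35, did not pass. In all, 8 of 21 effectors tested rose (38.1%, against 21.0% of all genes), with a median log2 fold change of 0.72. Without control 2, 13 of 21 did (61.9%, against 18.3% of all genes). With each library left out in turn the count ran from 5 to 13 (18.0% to 25.6% of all genes).

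**Figure D2:**
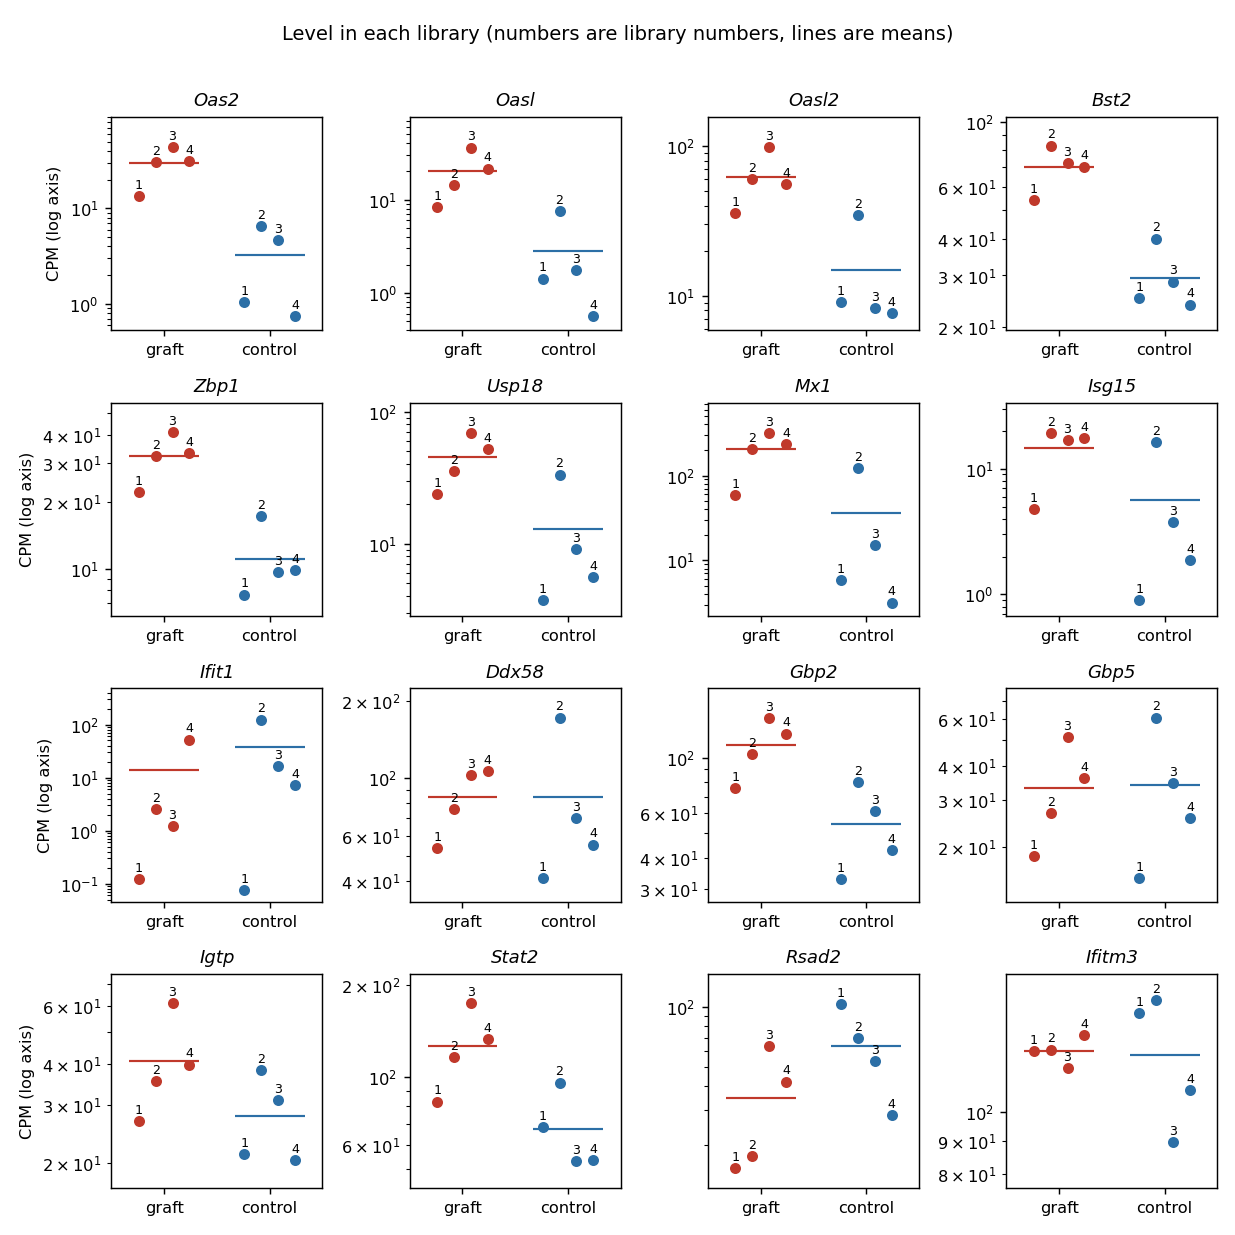
CPM on a log axis for 16 members in the 4 grafts (red, left) and the 4 controls (blue, right), with the library number beside each point and the mean as a line. Control 2 is the highest control in every panel except that of Rsad2, where control 1 is.

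Among the nucleic acid sensors, 2 of 5 rose, against 21.0% of all genes. Zbp1, which senses RNA and DNA in the Z form and can start necroptosis, stood at 22.1, 32.2, 41.2 and 33.1 CPM in grafts 1 to 4, against 7.64, 17.2, 9.62 and 9.89 CPM in controls 1 to 4. The groups did not overlap, and Zbp1 rose by 1.53 ± 0.28 (SE; edgeR adjusted p = 0.00202). Dhx58, or LGP2, which tunes the RIG-I-like receptors, stood at 14.9, 22.7, 40.6 and 30.7 CPM in grafts 1 to 4, against 3.60, 19.3, 5.44 and 5.04 CPM in controls 1 to 4. Control 2 exceeded graft 1, and the rise of 1.70 ± 0.53 (edgeR adjusted p = 0.0272) missed the threshold without control 3, control 4, graft 3 or graft 4 (0.0577 to 0.0738). The receptors themselves did not pass. Ddx58, or RIG-I, stood at 53.7, 75.9, 103 and 107 CPM in grafts 1 to 4, against 41.1, 172, 70.0 and 55.4 CPM in controls 1 to 4, with control 2 above all 4 grafts and a log2 fold change of 0.00 ± 0.42 (edgeR adjusted p = 0.997). Ifih1, or MDA5, averaged 54.5 ± 11.1 CPM in grafts and 46.0 ± 18.3 CPM in controls, and Eif2ak2, the kinase PKR that halts translation, averaged 97.9 ± 18.8 CPM in grafts and 89.5 ± 37.9 CPM in controls (SD, n = 4 each).

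Of 6 genes that attach or remove ubiquitin, ISG15 or ADP-ribose, Usp18 rose. It removes ISG15 from proteins and dampens the type I receptor. Usp18 stood at 23.7, 35.5, 68.8 and 51.6 CPM in grafts 1 to 4, against 3.75, 33.3, 9.12 and 5.60 CPM in controls 1 to 4. Control 2 stood within the graft range and the other controls below it. The rise of 1.79 ± 0.63 (SE; edgeR adjusted p = 0.0453) kept its call only without control 2 (0.0018) or graft 1, and had an edgeR adjusted p of 0.0617 to 0.109 without any other library. Trim25, the ubiquitin ligase that helps RIG-I signal, had 0.54 ± 0.21 (edgeR adjusted p = 0.0649, and 0.033 without control 2, 0.0226 with library totals and 0.0445 with upper-quartile factors). Parp9 and its partner Dtx3l, which modify histones and host proteins in the antiviral response, had 0.31 ± 0.22 and 0.37 ± 0.30, and Parp14 had 0.27 ± 0.31. Herc6, the main ISG15 ligase in the mouse, had -0.02 ± 0.44. None of these 5 passed. With 1 of 6 (16.7%) the share that rose was near the 21.0% of all genes. Without control 2 it was 2 of 6 (33.3%, against 18.3% of all genes). With each library left out in turn the count ran from 0 to 2 (18.0% to 25.6% of all genes).

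Of 5 interferon-gamma GTPases 1 rose, Gbp2, against 21.0% of all genes. Gbp2, a guanylate-binding protein that attacks pathogen vacuoles, stood at 75.9, 104, 145 and 125 CPM in grafts 1 to 4, against 32.9, 80.1, 61.2 and 42.7 CPM in controls 1 to 4. Control 2 exceeded graft 1, and the other controls were below all 4 grafts. Gbp2 rose by 1.05 ± 0.29 (SE; edgeR adjusted p = 0.0156), and missed the threshold with controls 3 and 4 left out (0.0891). The remaining 4 did not pass. Gbp4 averaged 7.73 ± 1.87 CPM in grafts and 3.48 ± 2.92 CPM in controls (SD, n = 4 each), with a log2 fold change of 1.13 ± 0.52 (edgeR adjusted p = 0.109, and 0.0413 by limma voom). Gbp5, which helps inflammasomes assemble, stood at 18.4, 26.7, 51.2 and 36.1 CPM in grafts 1 to 4, against 15.4, 60.5, 34.6 and 25.6 CPM in controls 1 to 4, so the groups overlapped throughout (log2 fold change -0.04 ± 0.42, edgeR adjusted p = 0.946). The immunity-related GTPases Igtp, at 0.56 ± 0.28 (edgeR adjusted p = 0.142), and Irgm, at 0.29 ± 0.33 (edgeR adjusted p = 0.496), hold the joint GAS and ISRE arrangement shown above. Without control 2, Gbp4 (edgeR adjusted p = 0.0154) and Irgm (0.0438) passed as well. Reads of Irgm and Irgm2 may be split between the copies.

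Stat2, a transcription factor of the type I signal, stood at 83.0, 116, 174 and 133 CPM in grafts 1 to 4, against 68.7, 95.8, 53.0 and 53.6 CPM in controls 1 to 4. Control 2 exceeded graft 1 alone among the grafts. Stat2 rose by 0.90 ± 0.25 (SE; edgeR adjusted p = 0.0182), and had an edgeR adjusted p of 0.0533 without control 3 and 0.146 with controls 3 and 4 left out.

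Set side by side, the type I effectors and the interferon-gamma GTPases moved through the libraries in nearly the same order. As a score, log2 CPM was averaged over the tested genes of a list, library by library. The effector score was 4.50, 5.30, 5.76 and 5.74 in grafts 1 to 4, against 3.61, 5.48, 4.25 and 3.53 in controls 1 to 4. The GTPase score was 4.51, 4.99, 5.50 and 5.17 in grafts 1 to 4, against 3.57, 5.24, 4.60 and 3.94 in controls 1 to 4. In both lists graft 1 was the lowest graft, graft 3 the highest graft and control 2 the highest control. The effector score less the GTPase score averaged 0.28 ± 0.24 in grafts and -0.12 ± 0.31 in controls (SD, n = 4 each), and the ranges overlapped. The shares that rose were 8 of 21 effectors (38.1%) and 1 of 5 GTPases, and with Stat2 counted among the GTPases 2 of 6. Of all genes 21.0% rose, and 5 GTPases are too few to place their share against that background. The median log2 fold change was 0.72 for effectors and 0.56 for GTPases, against 0.01 for all genes tested. Without control 2, 13 of 21 effectors (61.9%) and 3 of 5 GTPases (60.0%) rose, against 18.3% of all genes. Control 2 was singled out after the values were seen, as the highest control in both lists. With each library left out in turn, effectors that rose ranged from 5 to 13, and GTPases with Stat2 from 1 to 4. Of all genes 18.0% to 25.6% then rose. The difference between the classes was not tested.

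**Figure D3:**
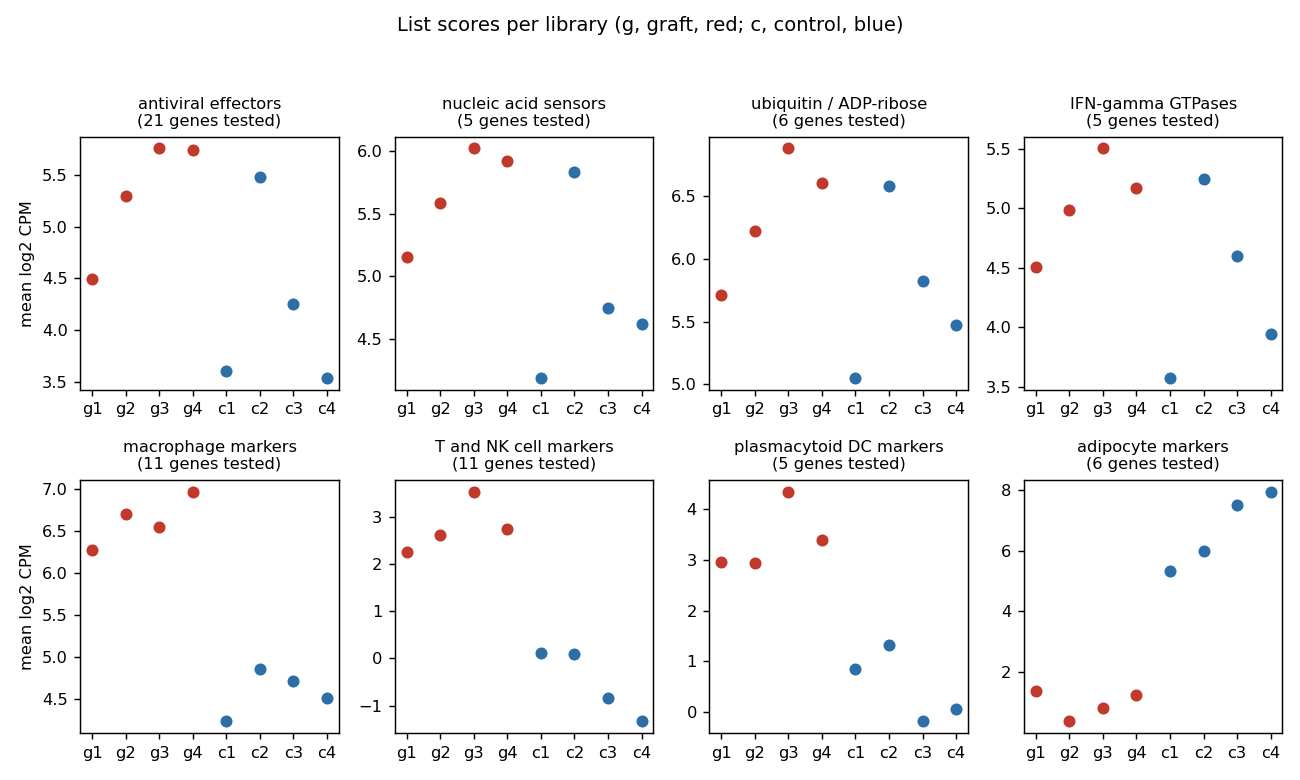
Mean log2 CPM of 4 member classes (top row) and 4 marker lists (bottom row) in each graft (g1 to g4, red) and control (c1 to c4, blue). Control 2 lies within the graft range in all 4 member classes, while in each marker list shown every graft lies on one side of every control.

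Control 2 and graft 1 stood apart within their groups across the members. Control 2 was the highest control for 33 of 38 members, against 19.9% of all genes tested, and graft 1 was the lowest graft for 35 of 38, against 23.5% of all genes. Graft 3 was the highest graft for 25 of 38, against 34.4% of all genes. Control 2 exceeded graft 1 for 29 of 38 members (76.3%), against 48.4% of all genes. It exceeded all 4 grafts for 13 of 38 (34.2%), a share no higher than the 36.4% of all genes. The median difference of the graft mean from each control, over the 38 members, was 1.07 for control 1, -0.05 for control 2, 0.71 for control 3 and 0.99 for control 4 on the log2 scale. Over all genes tested these medians ran from -0.01 to 0.04. The median SD of log2 CPM over members was 0.48 between grafts and 0.67 between controls, and over all genes it was 0.24 between grafts and 0.34 between controls. Control SD exceeded graft SD for 30 of 38 members (78.9%), as it did for 68.0% of all genes.

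Control 2 was singled out after the values were seen, and leaving out the highest control of most members tends to raise their fold changes. With control 2 left out, the log2 fold change was larger for all 38 members. Its median was 0.86 (0.55 with all libraries), while the median of all genes was 0.02. In that fit 21 of 38 rose (55.3%), against 18.3% of all 15854 genes tested. Of these, 12 had also passed with all libraries and 9 had not: Ifit2, Ifit3, Isg15, Mx1, Oas1a, Cmpk2, Trim25, Gbp4 and Irgm. Ifi27 lost its call (edgeR adjusted p = 0.0688). Set against controls 1, 3 and 4 alone, a choice made after the values were seen, every graft was above every control for 21 of 38 members, against 22.4% of all genes. Of these 21, control 2 reached into the graft range for 14. Over all genes tested it did so for 251 of the 3468 with every graft above controls 1, 3 and 4. Fewer rose with controls 3 and 4 left out, where 4 of 38 members rose (Oas2, Bst2, Ifitm1 and Zbp1), against 15.4% of all genes. These 4 passed in all 16 alternatives that were run.

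**Figure D4:**
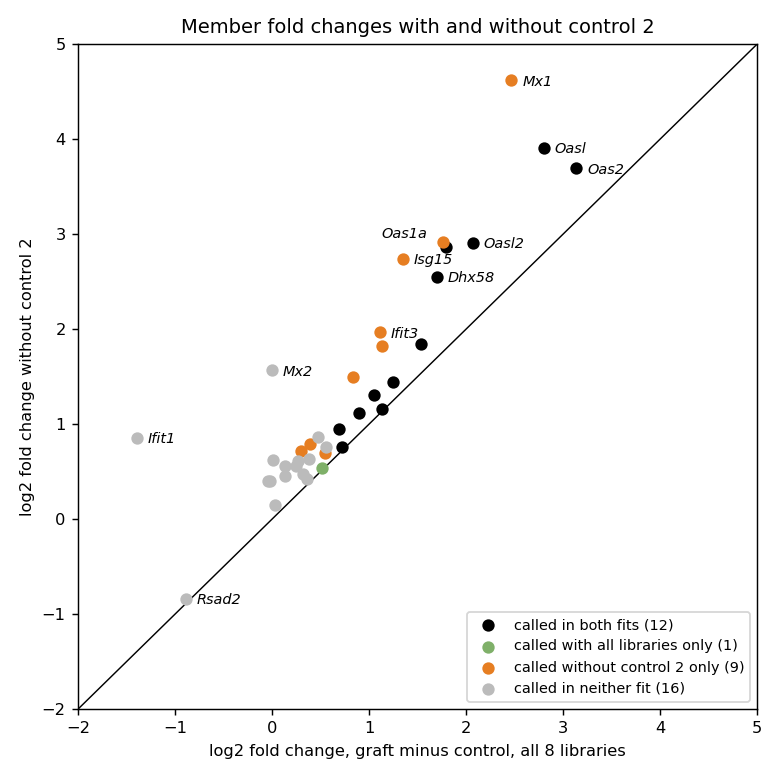
Log2 fold change (graft minus control) of the 38 members with all 8 libraries (x axis) and without control 2 (y axis), with the line of equality. Every point lies above the line, 12 members passed in both fits, 9 only without control 2 and 1 only with all libraries.

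Several lists of cell markers also differed between grafts and controls, and their part in the result was not tested. The macrophage score was 6.28, 6.70, 6.55 and 6.97 in grafts 1 to 4, against 4.23, 4.86, 4.71 and 4.51 in controls 1 to 4. Graft 1 was thus the lowest graft and control 2 the highest control in this list too, but the groups did not overlap. The T and NK cell score was 2.25, 2.62, 3.53 and 2.74 in grafts 1 to 4, against 0.12, 0.08, -0.85 and -1.34 in controls 1 to 4, so control 2 did not stand out from control 1. Of 5 markers of plasmacytoid dendritic cells, the cells known for making type I interferon in bulk, 4 rose, against 21.0% of all genes. Tcf4, which many cells express, did not pass. Siglech, a surface lectin listed here as a marker of plasmacytoid dendritic cells, stood at 7.16, 6.84, 23.4 and 10.2 CPM in grafts 1 to 4. In controls 1 to 4 it stood at 0.15, 0.199, 0 and 0 CPM. Which cells held these transcripts was not tested. Controls 3 and 4 had the highest adipocyte scores (7.50 and 7.93, against 5.33 and 5.98 in controls 1 and 2), and control 4 had the lowest depth. The summed macrophage markers ran from 1150 to 1819 CPM in grafts and from 276 to 461 CPM in controls, and the summed T and NK cell markers from 62.4 to 156 CPM in grafts and from 6.35 to 19.3 CPM in controls.

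The rest of the pathway was read from lists of genes that are not members. Of 84 listed, 78 had a row and 66 passed the filter, of which 34 rose, 1 fell and 31 did not pass. Of all genes tested 21.0% rose and 21.3% fell, to be set beside each count of these lists. The median log2 fold change of the 66 was 0.94. Interferon transcripts themselves were scarce. Ifng had 3, 1, 3 and 0 counts in grafts 1 to 4 and 0 in each control, Ifnb1 had 2 counts in graft 4 alone, and Ifna1 had 1 count in control 1 alone. The rows of Ifna2, Ifna4, Ifna5, Ifna11 and Ifnl3 were at 0 in all 8 libraries, where 3 counts correspond to 0.182 to 0.56 CPM per library. At this depth rarer interferon transcripts were not detectable. The single ligand that passed the filter was Ifne, an interferon known from the epithelium of the reproductive tract. It stood at 2.49, 1.13, 1.12 and 1.73 CPM in grafts 1 to 4, against 0.30, 0.0996, 0.251 and 0.187 CPM in controls 1 to 4, and rose by 2.85 ± 0.49 (SE; edgeR adjusted p = 0.00155).

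Of 9 receptors and their kinases, 7 rose, without overlap of the groups, and Ifngr1 and the kinase Jak1 did not pass. Ifngr2, the signalling chain of the interferon-gamma receptor, averaged 49.8 ± 9.98 CPM in grafts and 17.2 ± 0.763 CPM in controls (SD, n = 4 each) and rose by 1.54 ± 0.16 (SE; edgeR adjusted p = 8.97e-05). Of 6 STATs and IRFs, Irf7 alone rose. Irf7, the factor that amplifies the type I response, stood at 88.0, 175, 271 and 212 CPM in grafts 1 to 4, against 20.3, 78.2, 17.0 and 11.2 CPM in controls 1 to 4, with the same low graft and high control as the members. The groups did not overlap, and Irf7 rose by 2.55 ± 0.60 (edgeR adjusted p = 0.00766). Upstream of interferon, 4 of 6 sensing genes rose. Tlr7, an endosomal receptor for single-stranded RNA, averaged 98.7 ± 25.9 CPM in grafts and 15.4 ± 5.74 CPM in controls and rose by 2.68 ± 0.32 (edgeR adjusted p = 0.000217). Mavs, the adaptor of the RIG-I-like receptors, fell by 0.45 ± 0.13 (edgeR adjusted p = 0.0202). That call was lost without graft 1, graft 2 or graft 4 (0.0602 to 0.0624) and with library totals alone (0.293).

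Both enzymes of ISG15 attachment that were listed rose. Uba7, which activates ISG15, averaged 36.3 ± 13.3 CPM in grafts and 10.9 ± 4.31 CPM in controls (SD, n = 4 each) and rose by 1.71 ± 0.33 (SE; edgeR adjusted p = 0.00262). Of 4 feedback inhibitors, 3 rose. Ptpn6, the phosphatase SHP-1 of blood cells, averaged 85.1 ± 26.1 CPM in grafts and 14.7 ± 3.73 CPM in controls and rose by 2.52 ± 0.26 (edgeR adjusted p = 9.82e-05). Of 12 further genes known for induction by interferon-gamma, 6 rose, with a median log2 fold change of 1.37. The one with the smallest p was Ifi30, a lysosomal reductase of antigen-presenting cells, which averaged 146 ± 26.1 CPM in grafts and 37.3 ± 7.82 CPM in controls and rose by 1.97 ± 0.19 (edgeR adjusted p = 7.19e-05). Of 26 further genes known for induction by type I interferon, 10 rose, with a median of 0.68. Lgals3bp, a secreted binding protein of galectins, had the smallest p of these, averaged 312 ± 51.9 CPM in grafts and 47.3 ± 18.5 CPM in controls, and rose by 2.72 ± 0.26 (edgeR adjusted p = 6.29e-05).

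**Figure D5:**
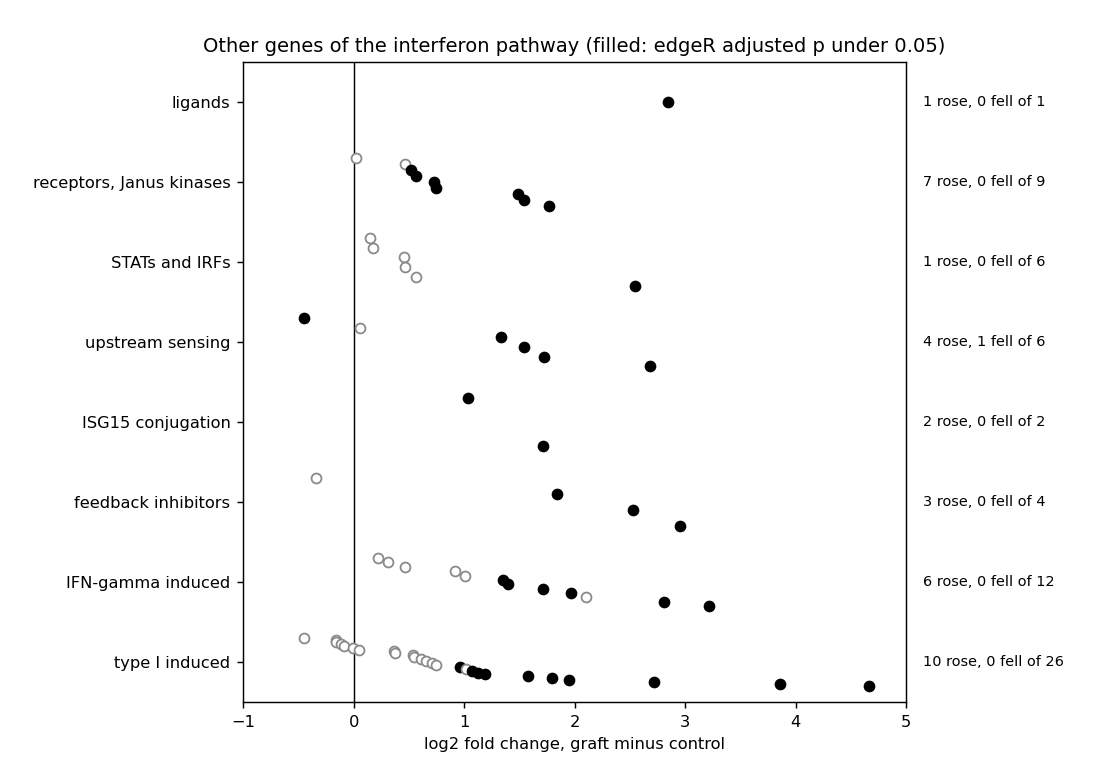
Log2 fold change (graft minus control) of 66 further pathway genes in 8 lists, each point a gene, filled where edgeR's adjusted p was under 0.05, with the counts of genes that rose and fell at the right. Of the 9 receptors and kinases 7 points are filled, and of the 6 STATs and IRFs the single filled point is Irf7 at 2.55.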

How the data were processed

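RNA of 4 grafts and 4 control veins was sequenced as total RNA. The authors deposited whole-number counts for each gene. Per the submitters' processing notes, the aligner was HISAT2 2.0.4 and the build Rnor_6.0. Counter, annotation release and strand use: not given in the sources used here, so antisense reads are not told apart. Reads of near-identical copies may be split. Columns were matched to samples by title.

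In R 4.3.3, edgeR 4.0.16 fitted all genes: filterByExpr (minimum count 10, 15464 genes kept), TMM factors, glmQLFit and glmQLFTest, graft minus control. Benjamini-Hochberg adjustment ran over all genes, with a threshold of 0.05. SE is the absolute log2 fold change over the square root of F. CPM uses TMM-scaled sizes. Scores use a prior count of 2. The steps were tested on simulated counts.

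Replicates differed by more than sampling noise. The series' text speaks of pairs, but source names number grafts and controls differently, so the fit is unpaired. Members and lists were chosen with earlier results of these data known. Every member is named. Values per library are given for the largest called rises of each class, and for others chosen after their values were seen.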

Additional observations from a re-analysis of the deposited data

Results flagged for a closer look

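Within groups of 4, 2 of the members' values lay far from the other 3 on the log2 scale, by a gap above Dixon's critical share of the group's range. Isg15 was at 4.79 CPM in graft 1, and the other grafts were at 17.0 to 19.2 CPM. Oasl2 was at 34.5 CPM in control 2, and the other controls were at 7.65 to 9.06 CPM. In all 76 groups were examined, and chance alone gives about 1 in 20.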

How the results depend on the processing

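No member fell under any of the 16 alternatives. Of 608 member values under them, 545 kept their side of the threshold, 39 lost a call and 24 gained one. Signs of members without a call, such as Ifit1, Mx2 and Ddx58, did change. With controls 3 and 4 left out, 4 members rose (8 at an unadjusted p under 0.05), 3 effectors, 1 sensor, 0 regulators and 0 of the GTPases and Stat2. DESeq2 gave 14 members (22.7% of all genes), limma voom 16 (21.4%), upper-quartile factors 15 (22.9%), no low-count filter 14 (14.1%), relative log expression factors 13 (21.0%) and library totals 15. Library totals put the all-gene median at 0.23 on the log2 scale, gave 2164 genes that fell, 2 regulators that rose and 0 further pathway genes that fell. Upper-quartile factors gave 2 regulators, and DESeq2 gave 2 further pathway genes that fell. With a single library left out, members that rose ranged from 7 to 21, effectors from 5 to 13, sensors from 1 to 2, regulators from 0 to 2, GTPases with Stat2 from 1 to 4, and further pathway genes that fell from 0 to 3. The cause of these shifts was not tested.

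With the title number as a replicate block, 14 members rose (19.7% of all genes; 10 of these 14 also without the block, and Isg15, Mx1, Oas1a and Gbp4 gained, at adjusted p of 0.0216, 0.017, 0.0271 and 0.0412), Adar, Ifi27 and Ifi35 lost their calls (0.0516, 0.0659 and 0.0744) and 0 further pathway genes fell. Deviations of same-numbered libraries correlated at -0.07, 0.18, 0.07 and 0.05 for numbers 1 to 4 across genes. Those of libraries with unlike numbers ran from -0.25 to 0.15. Such correlations cannot show or exclude pairing, since libraries of the same animal need not share these deviations. Calls of scarce transcripts are limited most by control 4, where 3 counts equal 0.56 CPM.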
